A study of Mus musculus with 6 samples.

Results

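Receptor activity-modifying proteins (RAMPs) are small proteins with a single membrane span. They pair with the calcitonin receptor-like receptor, encoded by Calcrl, bring it to the cell surface and set which peptide it answers to. With RAMP1 the pair is the receptor for calcitonin gene-related peptide (CGRP), and with RAMP2 or RAMP3 it is a receptor for adrenomedullin, the product of Adm. Calcrl and Ramp2 are known as genes of vascular endothelium in brain and elsewhere, where adrenomedullin acts on vessel growth and barrier function.

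The group consists of 5 genes, Ramp1, Ramp2, Ramp3, Calcrl and Adm, taken by symbol from the 36008 genes of the series, and of their 18 annotated transcripts among 116622 matched ones. RNA was taken from hippocampus of female B6J mice of 2 weeks, 3 wild-type (WT) mice and 3 Prmt9 knockout (KO) littermates, in which exon 5 of Prmt9 had been removed in the germline with CMV-Cre, so that the deletion was in all cells of the body. No treatment was given to either genotype. Polyadenylated RNA was sequenced as stranded libraries, and kallisto, a program that assigns reads to annotated transcripts by matching short words of sequence, gave an estimated count and a TPM (transcript abundance scaled for length and depth) for each transcript. Ramp2 was chosen by its WT and KO transcript TPM in these same files, in which transcripts that join exon 2 to different 3′ splice sites differed. The WT and KO values of Ramp2 are therefore given as a description, without a test. The other 4 genes belong to the group by their function.

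Total estimated counts lay between 194098391 and 286771677 per mouse. Prmt9 TPM was between 11.8 and 15.2 in WT mice and between 3.93 and 4.67 in Prmt9 KO mice, so the labels held for the targeted gene. Its log2 fold change was -1.71 ± 0.10 (standard error), with an adjusted p of 0.0327 in edgeR, the smallest of all genes tested. The mice numbered 1 of both genotypes stood apart from the other 4, WT replicate 1 by more than KO replicate 1 (110 and 30.5 on the first principal component, against -37.6 to -31.3). WT replicate 1 also had the lowest total count, and 37.4% of transcripts had no count in it, against 22.8% to 24.8% in the other mice. In the mice numbered 1, 8 neuronal marker genes summed to 2575 (WT) and 3057 (KO) TPM, against 4546 to 4914 in the others, 5 oligodendrocyte markers summed to 1763 and 932.7 TPM against 6729 to 9618. Of 12 endothelial markers, 5 were higher in both of these mice than in all others, such as Cldn5 with 107 and 89.2 TPM against 37.1 to 45.2. In contrast, 4 were lower in both, such as Flt1 with 7.20 and 7.89 TPM against 14.8 to 20.5, and 3 were neither, such as Pecam1 with 13.5 to 15.8 TPM in the 6 mice. The hippocampal and neuronal genes Prox1 (20.3 to 41.4 TPM) and Snap25 (517 to 1269 TPM) were present in each library. In whole tissue, fewer cells of a type and less RNA per cell cannot be told apart.

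Ramp2 (ENSMUSG00000001240) lies on the forward strand of chromosome 11 of GRCm38, from 101246028 to 101259546, and has 8 annotated transcripts. The main coding transcript, Ramp2-204, has 4 exons and 567 coding bases. Its intron 2 spans 441 bases from 101247145 to 101247585, and its exon 3 spans 103 bases from 101247586 to 101247688. From the 5′ splice site at the end of exon 2, at position 101247144, the annotation lists 4 different 3′ splice sites. Ramp2-202, Ramp2-204, Ramp2-205 and Ramp2-208 begin exon 3 at 101247586. Ramp2-201 begins it 15 bases upstream, at 101247571. Ramp2-207 begins it 183 bases upstream, at 101247403, and its annotated coding sequence stops after 75 codons, so that it is listed as a target of nonsense-mediated decay, the pathway that removes mRNAs with an early stop codon. Ramp2-203 skips the remaining Ramp2 exons and joins exon 2 to position 101253604, next to the following gene Vps25. Ramp2-206 keeps intron 2 in its RNA.

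The sequences that carry the difference were read from the GENCODE M21 transcripts of GRCm38 and are shown to make the site used by Ramp2-201 visible. First comes the end of intron 2 with the start of exon 3 (chr11:101247536-101247605, forward strand), in which capitals mark the AG of the upstream site and then the AG of the site of Ramp2-204. The next are the mRNAs across the junction of exon 2 with exon 3, from the last 30 bases of exon 2, where capitals mark the bases that the upstream site adds to the mRNA of Ramp2-204.
intron 2 end: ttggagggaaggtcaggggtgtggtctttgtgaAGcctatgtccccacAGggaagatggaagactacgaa
Ramp2-204: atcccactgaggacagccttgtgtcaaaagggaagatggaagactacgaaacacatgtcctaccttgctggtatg
Ramp2-201: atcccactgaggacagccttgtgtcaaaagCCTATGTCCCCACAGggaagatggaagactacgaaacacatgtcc

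The added run of 15 bases holds 5 codons with no remainder, so that the reading frame of exon 3 is kept in Ramp2-201. The upstream site ends in AAG and the site of Ramp2-204 in CAG. Of the 20 bases that precede the last 3 bases of the intron, 50% were pyrimidines at the upstream site, 60% at the site of Ramp2-204 and 55% at the site of Ramp2-207.

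**Figure D1:**
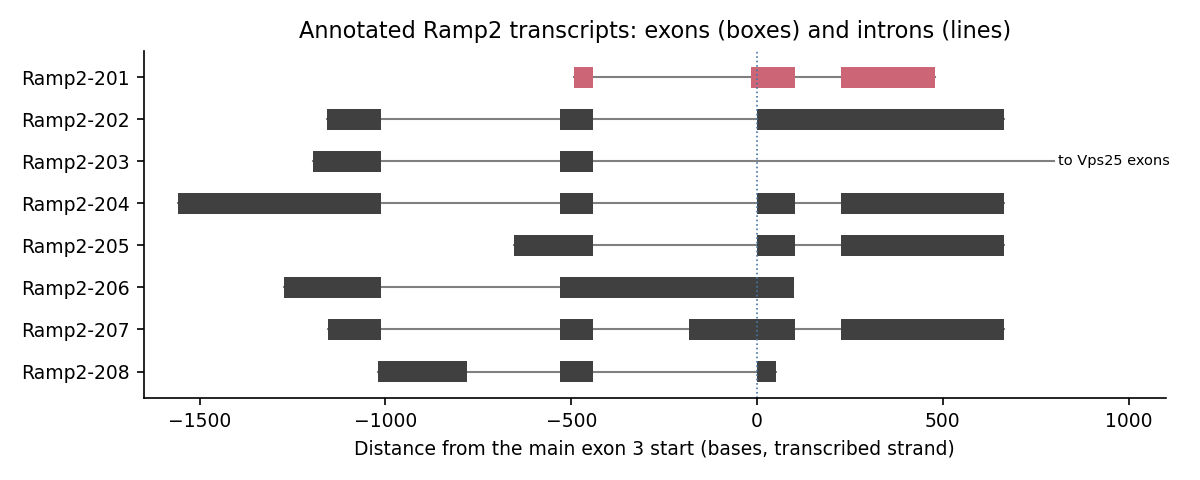
Exons (boxes) and introns (lines) of the 8 annotated Ramp2 transcripts, drawn to scale as distance in bases from the main exon 3 start, that of Ramp2-204 (dotted line). Ramp2-201, in red, starts exon 3 at 15 bases to the left of the line, Ramp2-207 at 183 bases to the left, and Ramp2-203 runs on to Vps25.

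Ramp2-201, the transcript of the upstream site, was listed at 0 TPM in each of the 3 WT mice and at 1.01, 1.06 and 2.69 TPM in Prmt9 KO replicates 1, 2 and 3. In estimated reads these were 0, 0 and 0 in WT against 33.3, 42.8 and 96.7 in Prmt9 KO. All KO mice were thus above all WT mice, and KO replicate 3 was the highest. Of 76491 transcripts with a mean above 0.1 TPM, 2 were at 0 TPM in all WT mice and at 1 TPM or more in all KO mice, which is 0.00261%. The other, named after its values were seen, was Itfg2-209, a retained-intron transcript of the integrin-alpha repeat gene Itfg2, with 3.12, 1.86 and 1.89 TPM in the KO mice. In the opposite direction, 0 transcripts were found. Because Ramp2-201 was chosen for this pattern, these counts describe it and test nothing.

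The share of each 3′ splice site was computed as the TPM of its transcripts divided by the TPM of all Ramp2 transcripts spliced from the end of exon 2. That denominator was between 47.9 and 67.9 TPM. The upstream site had a share of 0% in each WT mouse and of 1.48%, 2.15% and 5.10% in KO replicates 1, 2 and 3, or 2.91% ± 1.92 (SD, n = 3). Without KO replicate 3 the mean of the KO mice was 1.82%. Among 43668 such shares over all genes, 9.41% had groups that did not overlap and 4.77% had all KO mice above all WT mice. Shares at 0 in the WT mice and at 1.5% or more in the KO mice made up 0.0298%, and the opposite pattern 0.00687%. KO replicate 1, at 1.48%, lay just under that limit, so that the Ramp2 site is not among these. Ramp2-201 is a fragment of 424 bases without annotated ends, and a TPM is read per length. On the scale of estimated counts, the same share was 0.483%, 0.705% and 1.69% in the KO mice, with a mean of 0.960% ± 0.643 (SD, n = 3). A count of 0 in the WT mice does not set the share there to 0. On this scale 3 reads make up 0.0591% of the reads on spliced transcripts of the mouse with the fewest. This value covers counting error only and takes every read of Ramp2-201 as able to identify it. Only some reads can, so a larger WT share is allowed. The 31-base words found in Ramp2-201 and in no other quantified transcript numbered 27 of 394, and all 27 cross the junction of exon 2 with the upstream site. The value of Ramp2-201 therefore rested on reads over this single junction and on how kallisto divided the reads it shares with other Ramp2 transcripts, and the reads themselves were not analysed here.

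The site of Ramp2-204 took most of the splicing. Its share was 83.4%, 89.0% and 89.4% in WT and 85.3%, 85.2% and 82.5% in KO mice, so that the groups overlapped through WT replicate 1. The far upstream site of Ramp2-207 had 6.31%, 4.76% and 5.39% in WT and 5.48%, 6.70% and 4.86% in KO mice, and these ranges overlapped too. Of the 927 words of Ramp2-207, only 27 were its own, so its shares also rested on how kallisto divided shared reads. Read-through to Vps25 had shares of 10.3%, 6.24% and 5.21% in WT and of 7.69%, 5.93% and 7.54% in KO mice. WT replicate 1 was the highest of the 6 for this product. Of the 1448 words of Ramp2-203, 1073 also occur in transcripts of other genes, and Vps25, a subunit of the endosomal ESCRT-II complex, had 164 and 145 TPM in the mice numbered 1 against 90.2 to 93.6 TPM in the other mice. How far Ramp2-203 followed Vps25 was not tested.

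**Figure D2:**
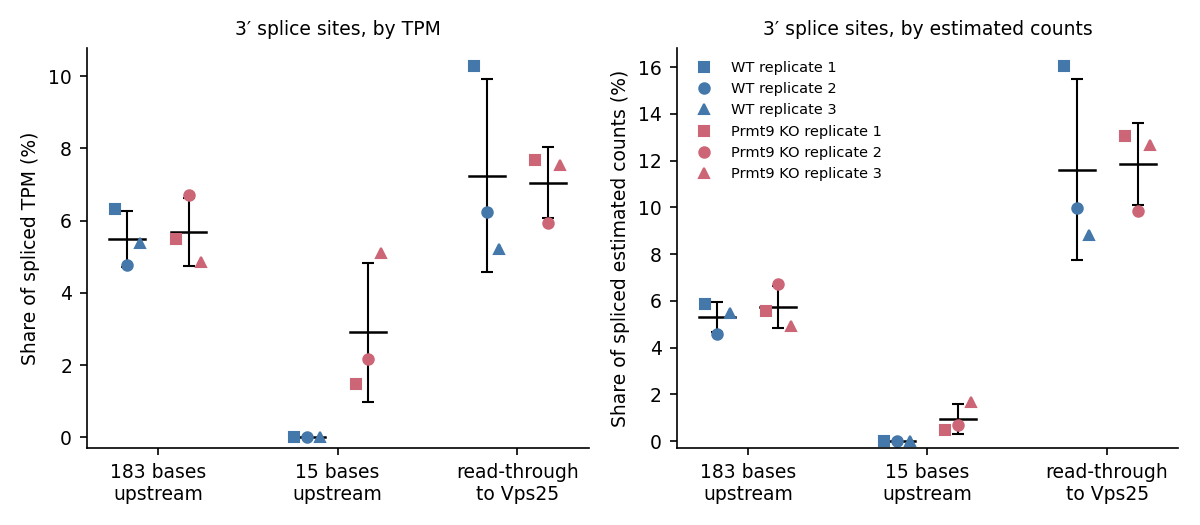
Share of 3 of the 3′ splice sites joined to Ramp2 exon 2, in percent of spliced TPM (left) and of spliced estimated counts (right); points are mice, lines the mean and bars the SD of 3 mice. For the site at 15 bases the WT mice sit at 0 and the KO mice between 1.48% and 5.10% on the TPM scale, while both genotypes overlap for the other sites.

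The other transcripts of Ramp2 had overlapping groups. Ramp2-204 had 25.6, 19.4 and 16.9 TPM in WT and 19.5, 17.4 and 17.1 TPM in KO mice. Ramp2-205, which starts inside intron 1 and has no annotated coding sequence, was as abundant, with 22.0, 18.4 and 24.7 TPM in WT and 34.3, 21.2 and 21.2 TPM in KO mice. Ramp2-206, the form with intron 2, had 1.43 to 2.41 TPM in WT and 2.07 to 2.84 TPM in KO mice. Ramp2-202, which keeps intron 3 of 122 bases and codes for 105 codons, had 3.59 to 4.85 and 2.89 to 4.42 TPM. Ramp2-207 had 2.28 to 3.96 TPM in WT and 2.56 to 3.72 TPM in KO mice, and Ramp2-208 had 0.763 to 1.26 and 0.581 to 0.857 TPM. Of the 8 transcripts, 1 had groups that did not overlap, Ramp2-201, where the share over all 76491 transcripts was 7.47%.

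**Figure D3:**
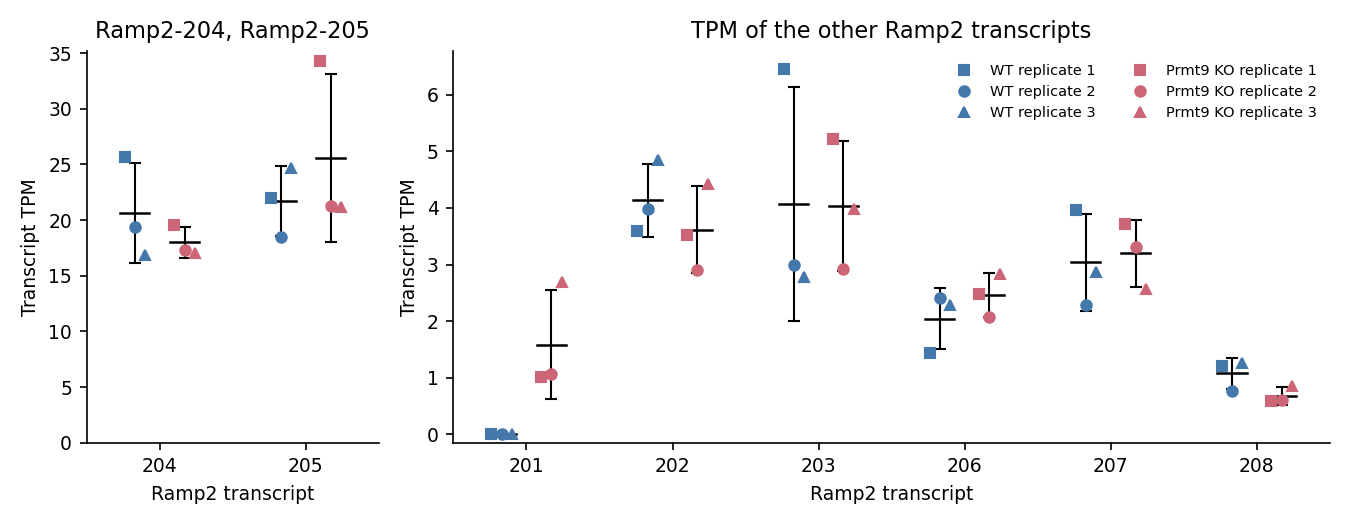
TPM of the 8 Ramp2 transcripts in 3 WT (blue) and 3 Prmt9 KO (red) mice; lines and bars are mean and SD, and the panels have different scales. Ramp2-201 is at 0 in the WT mice and at 1.01 to 2.69 TPM in the KO mice, and the groups of the other transcripts overlap.

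At the level of the gene, Ramp2 had 64.3, 50.3 and 55.6 TPM in WT and 70.4, 51.5 and 55.6 TPM in KO mice. Both mice numbered 1 were the highest of their genotype, and the other 4 mice lay between 50.3 and 55.6 TPM. The log2 fold change (KO against WT, edgeR, on normalized counts) was -0.09 with a standard error of 0.26, while the mean TPM of the KO mice was 104% of that of the WT mice. The genotypes overlapped at this level. Ezh1, the nearest coding gene upstream, had 21.1 to 49.8 TPM in WT and 26.4 to 48.5 TPM in KO mice.

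Among the accessory proteins, RAMP1 is the partner that gives the CGRP receptor, and its gene had the highest mean of the 5 in WT mice. Ramp1 (ENSMUSG00000034353, chromosome 1, 91179822 to 91225196) had 82.2, 53.7 and 54.3 TPM in WT and 59.9, 57.1 and 55.0 TPM in Prmt9 KO mice. Both mice numbered 1 stood above the other mice, which lay between 53.7 and 57.1 TPM, WT replicate 1 by far and KO replicate 1 by little. The log2 fold change was -0.22 ± 0.28 (standard error; edgeR, adjusted p = 0.9999), and it became 0.17 without WT replicate 1. Without WT replicate 1 the value was 0.19 for Ramp2, 0.38 for Ramp3 and -0.12 for Adm, so that these signs turned when this mouse was left out. Ramp3 (ENSMUSG00000041046, chromosome 11, 6658521 to 6677475), the partner for the other adrenomedullin receptor, had 12.3, 6.75 and 7.33 TPM in WT and 11.8, 6.86 and 7.66 TPM in KO mice. The mice numbered 1 of both genotypes were 1.69 times the mean of the others for Ramp3, and mice of the same number had close values in both genotypes. The log2 fold change of Ramp3 was -0.12 ± 0.41 (standard error; edgeR, adjusted p = 0.9999).

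The receptor gene Calcrl (ENSMUSG00000059588, chromosome 2, 84330626 to 84425411, reverse strand) had a lower TPM than each of the RAMP genes in every mouse, by far for Ramp1 and Ramp2 and by less for Ramp3. It had 3.44, 4.19 and 4.05 TPM in WT and 3.33, 4.24 and 4.96 TPM in KO mice. The log2 fold change, on normalized counts, was -0.09 ± 0.12 (standard error; edgeR, adjusted p = 0.9999). The mean TPM of the KO mice was 107% of that of the WT mice. Adm (ENSMUSG00000030790, chromosome 7, 110627661 to 110629820), the ligand, had 1.41, 4.17 and 3.68 TPM in WT and 2.05, 3.73 and 4.73 TPM in KO mice. Unlike Ramp1, Ramp2 and Ramp3 but like Calcrl, Adm TPM was lowest in the mice numbered 1, at 0.424 times the mean of the others. Its log2 fold change was 0.14 ± 0.37 (standard error; edgeR, adjusted p = 0.9999). In both genotypes the 5 genes had the same order by mean TPM, except that Ramp2 with 59.2 TPM stood above Ramp1 with 57.3 TPM in the KO mice. The ranges of Ramp1 and Ramp2 overlapped in each genotype, as did those of Calcrl and Adm, whereas Ramp3 stood apart from both pairs. In WT hippocampus the mean of Ramp1 was above that of 91.8% of all genes in the table, and the mean of Adm above that of 64.2%.

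**Figure D4:**
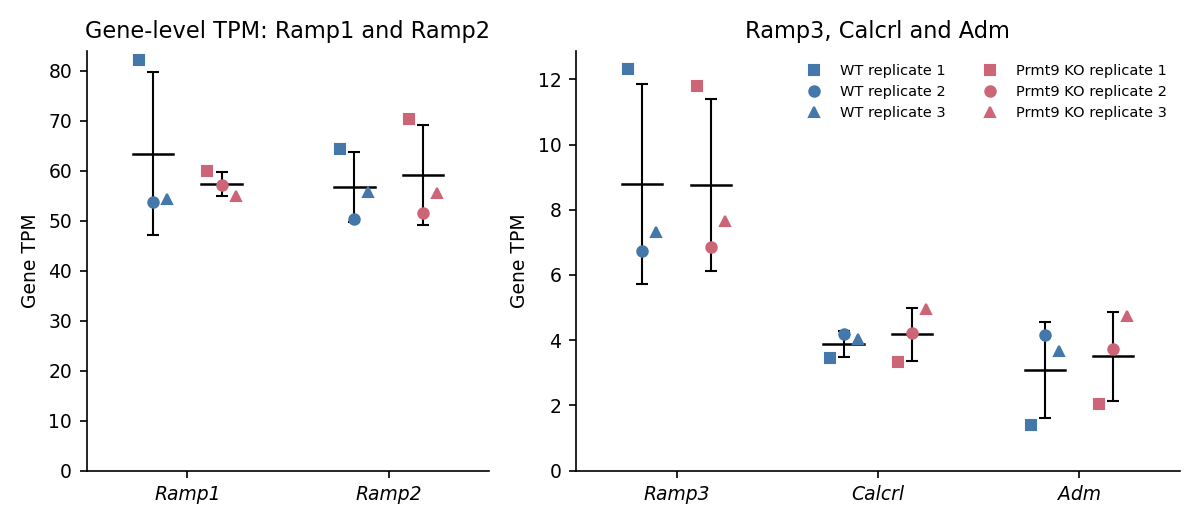
Gene TPM of Ramp1 and Ramp2 (left) and of Ramp3, Calcrl and Adm (right) in each mouse, squares being the mice numbered 1; lines and bars are mean and SD of 3 mice. The genotypes overlap for all 5 genes. The squares are the highest of their genotype for Ramp1, Ramp2 and Ramp3 and the lowest for Calcrl and Adm.

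Of the 4 members other than Ramp2, 0 were called between genotypes by edgeR's quasi-likelihood test (adjusted p under 0.01 with a change of over 1.5-fold), as were 0 of all 20315 genes tested (0.0%), with Prmt9 itself short of that limit. A count of 0 at this limit therefore does not show that a gene was unchanged. At an unadjusted p below 0.05 there were 252 genes, or 1.24%, and none of these 4 members was among them. DESeq2 called 2 genes and 0 members. Of the 9 transcripts of these 4 genes that could be tested, 0 were called by edgeR, with 0 of 75661 called over all genes (0.0%) and 1216 (1.61%) at an unadjusted p below 0.05, and DESeq2 called 110 transcripts over all genes and 0 of these. In the test of relative transcript use, 23 of 13560 genes were called (0.17%) and 234 (1.73%) had an unadjusted p below 0.05. That number of called genes was 1 with at least 10 counts in every mouse, 9 without KO replicate 3, 143 without WT replicate 1 and 249 without both mice numbered 1. Ramp1, Ramp3 and Calcrl were tested there, each with an adjusted p of 1.0 (edgeR, Simes test), and Adm had fewer than the needed pair of transcripts above the count filter.

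Among the 10 transcripts of these 4 genes, 1 had groups that did not overlap. The share was 7.47% over the 76491 transcripts with a mean above 0.1 TPM, a limit that Calcrl-202 did not reach. The transcript without overlap was Ramp1-202, named after its values were seen. It ends in a different last exon than the main form Ramp1-201 and codes for 103 codons in place of 148. It had 11.96, 5.35 and 4.90 TPM in WT and 4.56, 4.18 and 4.12 TPM in KO mice. Its share of Ramp1 TPM was 14.5%, 9.97% and 9.02% in WT and 7.62%, 7.31% and 7.50% in KO mice, and WT replicate 1 lay far above the rest. The KO mice spread over a much narrower range than the WT mice. The log2 fold change of the transcript was -0.94 ± 0.52 (standard error), with an unadjusted p of 0.116 and an adjusted p of 1.0 in edgeR. Ramp1-203, which has 1 more exon and codes for 105 codons, was lowest in the mice numbered 1, with 0.103 and 0.334 TPM against 0.966 to 1.51 TPM in the others.

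**Figure D5:**
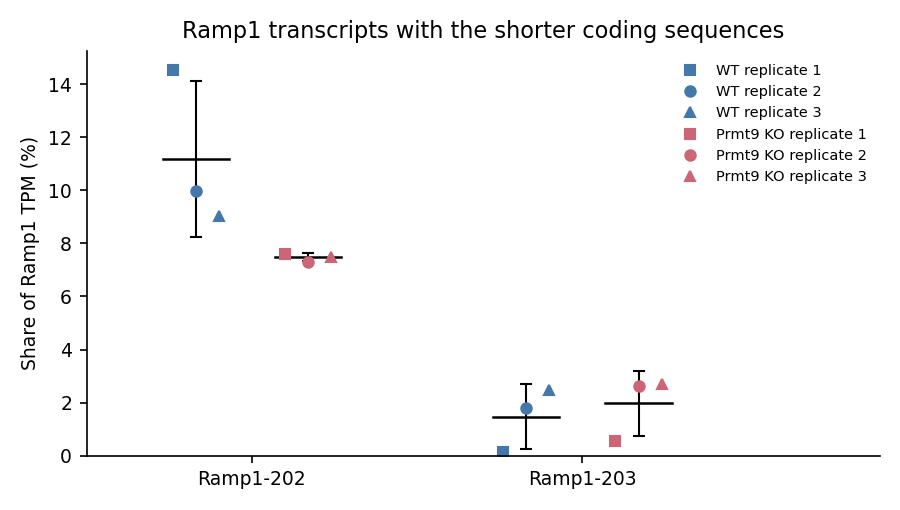
Share of Ramp1 TPM in the 2 transcripts with the shorter coding sequences, per mouse, with mean and SD of 3 mice. For Ramp1-202 the KO mice lie between 7.31% and 7.62% and the WT mice between 9.02% and 14.5%, and for Ramp1-203 the squares (mice numbered 1) are lowest.

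For Calcrl, the full-length form Calcrl-201 with 16 exons had 2.02 to 2.88 TPM in WT and 2.20 to 2.86 TPM in KO mice. The short non-coding Calcrl-203 had 1.03 to 1.36 TPM in WT and 1.07 to 2.10 TPM in KO mice, so that it made up 29.8% ± 2.8 and 35.8% ± 5.8 of the TPM of the gene (SD, n = 3 each). Of its 470 words, 26 were its own. Calcrl-202 was at 0 TPM in 1 mouse of each genotype and reached 0.398 TPM in WT replicate 1. For Ramp3, nearly all TPM was in the coding form Ramp3-201, with 6.13 to 11.9 TPM in WT and 6.59 to 11.3 TPM in KO mice. Of the 1203 words of Ramp3-201, 35 were its own and 74 also occur in transcripts of other genes. Adm-202, annotated as a retained intron, stayed below 0.6 TPM in the 6 mice, and Adm-201 carried the rest.

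The wider pathway was followed with 6 lists of genes, 60 without Ramp2, of which 57 could be tested and 0 were called in either direction by edgeR. The smallest adjusted p was 0.9999, and 0 of the 57 had an unadjusted p below 0.05. Their median log2 fold change was -0.004, beside -0.01 over all genes tested. Of the other ligands, Calca, which encodes CGRP and calcitonin, had 5.88, 3.61 and 3.73 TPM in WT and 6.14, 3.605 and 3.79 TPM in KO mice, again highest in the mice numbered 1. Calcb, the gene of the second form of CGRP, had 0.624 to 0.775 and 0.636 to 1.07 TPM. Adm2 and the amylin gene Iapp stayed at or below 0.0321 TPM in all libraries and were not tested. Calcr, the calcitonin receptor that also pairs with RAMPs, had at most 0.0832 TPM.

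Ackr3, an atypical receptor that scavenges adrenomedullin, had 7.38 to 10.8 TPM in WT and 7.60 to 10.8 TPM in KO mice. Gpr182, an atypical receptor once proposed to bind adrenomedullin, had 0.501 to 1.43 and 1.03 to 1.48 TPM. Crcp, the CGRP receptor component protein that is also a subunit of RNA polymerase III, had 30.97, 38.5 and 38.1 TPM in WT and 51.0, 43.3 and 41.0 TPM in KO mice. Each KO mouse was above each WT mouse for Crcp, with a log2 fold change of 0.23 ± 0.16 (standard error; edgeR, adjusted p = 0.9999). Of 53 pathway genes with a mean of at least 1 TPM, 2 had groups that did not overlap, Crcp and the peptide-degrading enzyme gene Ide, which is 3.77%, and the share over all 15200 such genes was 5.97%.

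In the list of peptide processing and clearance, log2 fold changes of 8 genes lay between -0.12 and 0.08, with Pcsk2, Ece1 and Furin at the largest sizes. Among 17 genes of Gs and cAMP signalling, the route that these receptors use, they lay between -0.12 and 0.17, with Adcy2 at 0.17, Adcy9 at -0.12 and Adcy4 at -0.11. Of 13 class B receptor genes, the family of Calcrl, 12 were tested, with Pth2r at 0.83 ± 0.48, Gipr at 0.35 ± 0.40 and Glp1r at 0.34 ± 0.65 (standard errors). The Pth2r value came largely from KO replicate 1, with 2.24 TPM against 0.558 to 0.954 TPM in the other mice. Adm is known to be induced under low oxygen. The 10 hypoxia-induced genes had log2 fold changes between -0.38 (Car9) and 0.09, with Bnip3 at -0.18 and Ankrd37 at -0.16, and they summed to 1107 to 1209 TPM in WT and 1121 to 1304 TPM in KO mice.

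Endothelial cells are a known site of Calcrl and Ramp2. The 12 endothelial markers summed to 289 to 415 TPM in WT and 289 to 372 TPM in KO mice, with 0 called and a median log2 fold change of -0.09. The 9 mural cell markers summed to 204 to 219 and 189 to 243 TPM, and Rgs5 had 46.0 to 50.7 and 42.8 to 54.9 TPM. None of these markers was at 0 in all mice. The 5 choroid plexus markers summed to 607.7 to 7263 TPM in WT and 865 to 3334 TPM in KO mice, which was more variable than the vascular sums. The 5 blood markers summed to 2553, 4278 and 6334 TPM in WT and to 1036, 3275 and 1932 TPM in KO mice, and the genotypes overlapped for each of them. All 5 were lower in the KO than in the WT mouse of the same number, but numbers 2 and 3 were not shown to be pairs. The median log2 fold change of the blood markers was -1.11, with 0 called by edgeR (adjusted p = 0.9999). At an unadjusted p below 0.05 there were 2 of the 5, beside 1.24% of all genes tested. Summed astrocyte markers lay between 889.4 and 1414 TPM and microglial markers between 126 and 179 TPM over the 6 mice, both sums lowest in the mice numbered 1. Of the 5 microglial markers, 3 were lower in both of these mice than in all others and 1 was higher. Of the 5 astrocyte markers, 3 were lower and 0 higher. The microglial marker P2ry12, named after its values were seen, had 39.7 to 44.9 TPM in WT and 32.8 to 37.8 TPM in KO mice. Its log2 fold change was -0.38 ± 0.18 (standard error; edgeR, adjusted p = 0.9999). Groups did not overlap for 5.97% of the 15200 genes with a mean of at least 1 TPM. The part that these cell types had in the values of the 5 genes was not tested.

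Over the 6 mice the log2 CPM of Ramp2 and Ramp3 correlated at 0.998 (Pearson's r), and that of Ramp1 with them at 0.92 and 0.91. Each ran opposite to Adm, with r of -0.97 for Ramp2, -0.96 for Ramp3 and -0.92 for Ramp1. Calcrl had an r of 0.18 with Adm, 0.17 with Ramp1, -0.16 with Ramp2 and -0.19 with Ramp3. These coefficients describe 6 libraries of which those numbered 1 stood apart, and are given without a test. Among 15120 genes, those most like Ramp2 in this measure were Shmt2, Mrm1 and Raly (r at least 0.999), those most like Ramp3 were Cryzl2, Cdk5rap3 and Mrm1, and those most like Ramp1 were Stx18, Atp5j and Cd53. For Calcrl they were Il11ra1, H2-Aa and Gm5069, the last with an r of 0.985.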

How the data were processed

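Hippocampal RNA of 3 WT and 3 Prmt9 KO mice had been sequenced. The authors made an estimated count and a TPM value for each transcript with kallisto (version 0.46.0 in the submitters' processing notes, build GRCm38; the study's methods name an earlier version), fractional where reads fit several transcripts, and deposited TPM summed over each gene, which were scaled within each mouse for length and depth. Estimated counts were not normalized by the authors. Transcripts were assigned to genes with GENCODE M21, and 116622 of 118783 matched. Here estimated counts were summed per gene and the sums rounded, and transcript counts were rounded for the transcript tests. The tests used edgeR 4.0.16 under R 4.3.3 (TMM, filterByExpr, quasi-likelihood test, diffSpliceDGE), with DESeq2 1.42.0 and limma 3.58.1 as alternatives and Benjamini-Hochberg adjustment over all features. Gene and transcript calls needed an adjusted p below 0.01 and a fold above 1.5, usage calls an adjusted p below 0.01. Python 3.11.15 was used for shares, sequences and figures. Total estimated counts were 194098391 to 286771677. The fits were tested on simulated data.

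Labels say that each sample was an individual mouse. Replicate numbers were checked for pairing: deviations from group means gave correlations of 0.55, 0.41 and 0.38 for equal numbers, each above 0.1, so the replicate block was an alternative fit. WT replicate 2 with KO replicate 3 gave 0.42, so the check mainly sets the mice numbered 1 apart. The members, gene lists and alternatives were chosen with earlier results of these data known. Named were all members and their transcripts, ligands and receptors, the 3 largest changes of each other list, and the 3 genes most like each member, which for Adm are not reported here.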

Additional observations from a re-analysis of the deposited data

How the results depend on the processing

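Of the 4 members other than Ramp2, their transcripts and the 57 pathway genes, 0 were called in the main fits and under all alternatives run, including the replicate block, which changed no call of these genes. The number of called genes was 0 with edgeR, 2 with the DESeq2 Wald test, 1 with a term for the mice numbered 1 and 1 without both mice numbered 1, the last chosen after seeing the data. DESeq2 called 110 transcripts where edgeR called 0. Genes called for transcript usage were 23 in the main fit, 4 with limma on voom weights, 1 with at least 10 counts in every mouse, 13 with the replicate block, 249 without both mice numbered 1, and 9 to 143 when 1 mouse was left out, the highest without WT replicate 1 and the lowest without Prmt9 KO replicate 3.

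The share of the upstream Ramp2 site differed by 2.91 percentage points (KO minus WT), by 0.960 on estimated counts, by 6.56 among protein-coding transcripts, and by 1.82 to 3.63 with 1 mouse left out, lowest without Prmt9 KO replicate 3. As the share was 0 in every WT mouse, leaving out a WT mouse could not change the difference. For the same reason the differences within pairs of the same number (the replicate block), 1.48, 2.15 and 5.10, are the KO values themselves. The gene-level log2 fold changes of the members turned sign under some settings. Without both mice numbered 1 they were 0.072 for Ramp1, 0.045 for Ramp3 and 1.28e-06 for Calcrl. With limma on log2(TPM + 1) they were 0.054 for Ramp2, 0.0054 for Ramp3 and 0.072 for Calcrl. With 1 mouse left out they ranged from -0.38 to 0.17 for Ramp1, -0.28 to 0.19 for Ramp2, -0.45 to 0.38 for Ramp3, -0.13 to -0.02 for Calcrl and -0.12 to 0.38 for Adm. The cause was not tested. Uncertainty of the assignment of reads to transcripts was not modelled.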
